A study of Mus musculus with 5 samples.

Results

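The genes described here are 10 genes by which macrophages take up, store and export lipid: Cd36, Msr1, Lpl, Fabp4, Plin2, Soat1, Abca1, Abcg1, Apoe and Nr1h3. They were chosen by name, and all 10 are among the 26189 genes of the deposited tables. The study asked what loss of serum amyloid A3 (Saa3) does to immune cells of the atherosclerotic aorta. The 1 sample with values used here is a suspension of live CD45-positive cells sorted from the aortic arch of female mice.

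That sample holds 2 pools of cells, each marked with its own sample tag. The first pool is labelled C57BL/6J wild-type. The other pool is labelled Saa3-/-, carrying the allele C57BL/6N-Saa3tm1.1(KOMP)Vlcg/MbpMmucd, and the series describes both as littermates. Both genotypes received 1 intraperitoneal injection of an AAV8 vector to induce atherosclerosis. Both were then fed a Western diet for 18 weeks, and the labels give an age of 12 weeks. The number of mice behind each pool is not given in the sources used here, and there is 1 pool per label. No test of genotype was possible, every interval below is a 95% interval for counting error only, and the 4 samples of cultured bone marrow macrophages were not analysed here.

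Scavenger receptors and lipoprotein lipase bring modified lipoproteins and fatty acids into a macrophage, where excess cholesterol is esterified and kept in droplets coated by perilipin. Cholesterol leaves through ATP-binding cassette transporters onto apolipoproteins. Oxysterol-activated liver X receptors (LXR), which bind DNA together with a retinoid X receptor, switch on the export genes, and macrophages whose droplets fill the cell are the foam cells of a plaque.

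RefSeq promoter windows on GRCm38.p6 were matched for 6 of the 10 genes (9 windows for Abca1, Apoe, Cd36, Nr1h3, Plin2 and Soat1). The 250 bases before the annotated start of Abca1, chr4:53159896-53160145 on the minus strand, are printed because they hold the only relaxed LXR-type repeat among the 9 windows, and those of Plin2, chr4:86670060-86670309 on the minus strand, because they hold a single nuclear receptor hexamer and no repeat.
Abca1: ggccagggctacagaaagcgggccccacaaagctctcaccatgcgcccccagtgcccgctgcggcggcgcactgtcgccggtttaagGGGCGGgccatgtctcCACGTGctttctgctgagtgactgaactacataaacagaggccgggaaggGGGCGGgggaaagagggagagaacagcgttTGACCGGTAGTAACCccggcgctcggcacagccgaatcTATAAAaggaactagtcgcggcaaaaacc
Plin2: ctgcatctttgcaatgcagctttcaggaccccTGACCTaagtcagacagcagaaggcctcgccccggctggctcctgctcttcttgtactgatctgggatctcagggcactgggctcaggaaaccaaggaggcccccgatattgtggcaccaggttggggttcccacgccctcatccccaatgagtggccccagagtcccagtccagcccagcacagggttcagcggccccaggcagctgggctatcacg
Capitals mark matches on either strand, read 5′ to 3′, with the last base of each line directly before the start (position -1). In Abca1 they are 2 GC boxes (GGGCGG, first bases at -163 and -97), an E box (CACGTG, at -147), a relaxed repeat (GGTTANNNNNGGTCA, on the opposite strand, at -67) and a TATA box (TATAAA, at -29). The relaxed repeat was chosen after this window had been read. It occurs in 0.0457% of the 32851 promoter windows of the same length. The strict repeats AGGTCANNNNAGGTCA (LXR type, in 0.0152% of windows) and AGGTCANAGGTCA (PPAR type, in 0.0335%) were in 0 of the 9. In Plin2 the capitals mark the hexamer AGGTCA on the opposite strand at -218. That hexamer was also in the Cd36 window and is in 14.02% of all windows. The GC box was in 32.7% of all windows, the E box in 6.02% and the TATA box in 12.4%. GAGGAAGT (PU.1 type, in 2.44%) and TGAGTCA (AP-1 type, in 4.46%) were also searched on both strands and were in 0 of the 9. These are matches of letters and not measured binding.

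Cells with over 25% of molecules from mitochondrial genes were left out, which kept 833 of 889 cells labelled wild-type and 823 of 854 labelled Saa3-/-. They held a mean of 8751 and 6357 molecules, and 0 cell indices were shared. Saa3 went against its label: the pool labelled Saa3-/- held 1268 Saa3 molecules and the pool labelled wild-type 1079. In the pool labelled Saa3-/-, 2 cells held 1124 of these, and among macrophage-gated cells the pools held 38 and 866. Directions below are therefore between pools as labelled.

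Each cell was given a type where at least 3 fixed markers of that type (2 for dendritic cells) had at least 2 molecules each. This put 234 and 164 cells in the macrophage gate (pool labelled wild-type first, here and below), 24 and 19 in the monocyte gate, 167 and 200 in the T cell gate and 37 and 72 in the B cell gate. Although the sort was for CD45, 101 and 82 cells passed as fibroblast and 113 and 72 as smooth muscle. Another gate was also passed by 148 of the 185 smooth-muscle-gated cells and 94 of the 183 fibroblast-gated cells. It was also passed by 20 of the 43 monocyte-gated cells, of which 18 had just the least number of markers. Of the 398 macrophage-gated cells, 17 had just the least number of markers and 138 also passed another gate. Their median levels of fibroblast markers were 689 and 675 CPM (the molecules of a gene or list per 1000000 molecules of the same cells), of smooth muscle markers 649 and 700 CPM, and of T cell markers 172 and 136 CPM.

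Most of these genes had their higher levels in macrophage-gated cells, and Fabp4 and Soat1 fell outside the call. Cd36, Msr1, Lpl, Plin2, Abca1, Abcg1, Apoe and Nr1h3 were more than 2-fold higher in macrophage-gated cells than in all other gated cells in both pools. That is 8 of 10, against 6.16% of 9418 genes that passed the same limit. 0 of 10 were past 2-fold lower in both pools, against 15.1%. Soat1 was higher by 0.90 (interval 0.64 to 1.16) and 0.82 (0.53 to 1.10) on the log2 scale, under 2-fold. As the mean over the pools, Abcg1 fell to 0.88, under 2-fold, without cells that pass 2 gates, and Soat1 was past 2-fold at 1.02 with Leiden clusters and at 1.07 with a gate of 4 markers. Fabp4 was lower by 2.15 on the log2 scale in the pool labelled wild-type, 9.89 CPM against 44.5, and stood at 59.1 against 40.1 CPM in the pool labelled Saa3-/-.

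**Figure D1:**
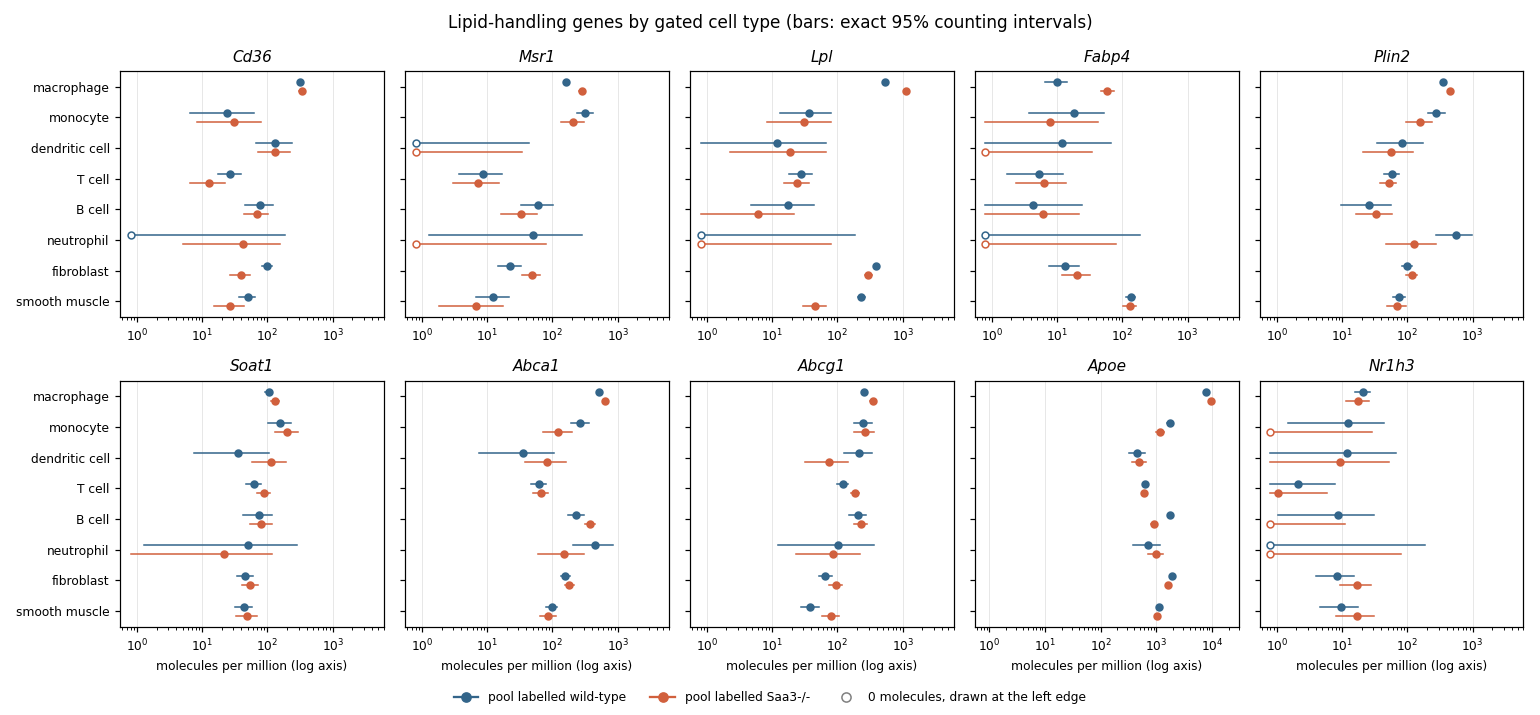
Level of each of the 10 genes (x axis, CPM, log scale) in the 8 cell types with at least 20 gated cells (y axis), for the pool labelled wild-type (blue) and the pool labelled Saa3-/- (orange). Points are levels of summed molecules (open where there were 0) with exact 95% counting intervals: Apoe stands at 7654 and 9480 in macrophage-gated cells and Fabp4 at 133 and 131 in smooth-muscle-gated cells, the highest level of each among these types.

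Uptake genes differed in which cell type beside macrophages held them. Cd36, a scavenger receptor and fatty acid transporter, was at 319 CPM (interval 298 to 341) and 335 CPM (306 to 367) in macrophage-gated cells and next highest in dendritic-cell-gated cells, at 132 and 131 CPM. Only 10 and 12 cells stand behind the dendritic values, and their intervals overlapped those of B-cell-gated and neutrophil-gated cells in both pools. They also overlapped those of fibroblast-gated cells in the pool labelled wild-type and of monocyte-gated cells in the other. Msr1, the class A scavenger receptor for modified LDL, was at 163 CPM (148 to 179) and 285 CPM (258 to 314) in macrophage-gated cells. In monocyte-gated cells Msr1 was at 321 CPM (240 to 420) and 208 CPM (137 to 303), so the order of these 2 types was opposite in the 2 pools, and in the pool labelled Saa3-/- their intervals overlapped. The order depends on how cells are grouped. The monocyte-like cluster of 32 cells had Msr1 at 431 and 359 CPM. Macrophage-like clusters of 184, 159 and 64 cells had 116, 157 and 362 CPM in the pool labelled wild-type and 149, 289 and 535 CPM in the other. In dendritic-cell-gated cells 0 Msr1 molecules were found, which at 3 molecules allows up to 36.0 and 28.0 CPM (the exact intervals end at 44.2 and 34.4 CPM). The gate holds 22 cells, while 2 dendritic-cell-like clusters of 86 and 58 cells had Msr1 at 31.6 and 57.2 CPM over both pools. Cd36 was at 30.3 and 253 CPM in them. These clusters are mixed, with 13 and 9 dendritic-cell-gated cells beside 14 and 14 macrophage-gated cells. Which of their cells held the Msr1 molecules was not tested.

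Lpl encodes the lipase that frees fatty acids from circulating triglyceride. It was at 528 CPM (501 to 556) and 1135 CPM (1080 to 1192) in macrophage-gated cells. Fibroblast-gated cells followed at 392 CPM (357 to 429) and 295 CPM (261 to 333), with 310 of the 470 molecules behind the first value in 5 cells and 136 in 1. The fibroblast-like cluster of 119 cells had the pools in the opposite order, at 218 and 370 CPM. Smooth-muscle-gated cells had 232 CPM (204 to 263) in the pool labelled wild-type and 45.4 CPM (29.9 to 66.1) in the other, and 5 cells held 69.4% of the molecules behind the first value. In the other 5 types with at least 20 cells Lpl was between 0 and 36.3 CPM.

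Fabp4, a fatty acid chaperone known from adipocytes, macrophages and capillary endothelium, was highest in smooth-muscle-gated cells among the 8 types with at least 20 cells. It stood there at 133 CPM (112 to 158) and 131 CPM (104 to 164), the same in both pools within counting error. At least 1 molecule was found in 55 of 113 cells (48.7%) and 34 of 72 cells (47.2%), against 5 of 167 (2.99%) and 5 of 200 (2.50%) in T-cell-gated cells. Median depth was 8491 and 7043 molecules in smooth-muscle-gated cells and 4855 and 4337.5 in T-cell-gated cells. With each cell thinned to 3000 molecules the shares were 30 of 103 cells (29.1%) and 17 of 65 (26.2%), against 1 of 143 (0.699%) and 2 of 171 (1.17%).
The adipocyte list (7 markers) had 2 molecules in smooth-muscle-gated cells of the pool labelled wild-type, all of 1 marker, and 0 in the other pool. Adipoq, Cidec, Plin1 and Lep were at 0 there in both pools. Endothelial markers summed to 30.1 CPM in the smooth-muscle-gated cells with Fabp4 and 94.1 CPM in those without it in the pool labelled wild-type, and to 92.6 and 58.8 CPM in the pool labelled Saa3-/-. Cardiomyocyte markers were at 97.9 and 119 CPM in smooth-muscle-gated cells, with Myh6 at 0, and their part in the Fabp4 level was not tested. The endothelial gate itself held 4 and 3 cells, with 2 and 21 Fabp4 molecules, and all 21 came from 1 cell, which puts the gate at 108 and 539 CPM. An endothelial-like cluster of 10 cells had 313 CPM over both pools.

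Of the storage genes, Plin2, which coats lipid droplets, was at 354 CPM (332 to 377) and 451 CPM (417 to 488) in macrophage-gated cells. It was at 278 and 154 CPM in monocyte-gated cells and at 553 CPM (276 to 989) and 128 CPM (46.9 to 278) in neutrophil-gated cells, which rest on 11 and 6 molecules. Soat1, which esterifies cholesterol for storage, was at 157 CPM (103 to 231) and 201 CPM (131 to 294) in monocyte-gated cells, 104 and 130 CPM in macrophage-gated cells and 61.6 and 87.2 CPM in T-cell-gated cells. Monocyte and macrophage intervals overlapped in both pools, and macrophage and T cell intervals did not in either.

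Of the export genes, Abca1, which loads cholesterol onto lipid-poor apolipoprotein, was at 508 CPM (482 to 535) and 645 CPM (604 to 689) in macrophage-gated cells. B-cell-gated cells had 232 CPM (175 to 303) and 375 CPM (312 to 446). The 7 and 15 neutrophil-gated cells had 452 CPM (207 to 858) and 149 CPM (59.99 to 307) on 9 and 7 molecules, so that in the pool labelled wild-type their interval overlapped that of macrophage-gated cells. Abcg1, which exports sterol to mature lipoproteins, had a broader profile, with 260 CPM (241 to 279) and 348 CPM (318 to 380) in macrophage-gated cells, 248 and 262 CPM in monocyte-gated cells, 207 and 228 CPM in B-cell-gated cells and 121 and 185 CPM in T-cell-gated cells. Macrophage and monocyte intervals overlapped for Abcg1 in both pools. Apoe, the apolipoprotein that macrophages secrete, was at 7654 CPM (7550 to 7758) and 9480 CPM (9320 to 9643), and fibroblast-gated cells followed at 1932 and 1643 CPM. Nr1h3, which encodes LXR alpha, was low: 57 and 25 molecules in macrophage-gated cells, or 20.9 CPM (15.8 to 27.0) and 17.8 CPM (11.5 to 26.3), and its intervals overlapped those of the next types.

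Free RNA can give a cell molecules of a gene it does not express, so levels in T-cell-gated cells were set against 8 genes typical of macrophages (C1qa, C1qb, C1qc, Csf1r, Adgre1, Ms4a7, Lyz2 and Pf4). In T-cell-gated cells these stood at 2.49 to 7.21% of their macrophage level in the pool labelled wild-type and at 2.87 to 6.44% in the other. Lpl at 5.23 and 2.13%, Msr1 at 5.21 and 2.58%, Cd36 at 8.32 and 3.76% and Apoe at 8.12 and 6.40% lay at or near that range. Soat1 at 59.0% (43.7 to 78.5) and 67.0% (51.0 to 87.2) and Abcg1 at 46.6% (37.9 to 56.9) and 53.1% (44.5 to 63.3) lay far above it in both pools. Plin2 at 16.2 and 11.4% and Abca1 at 12.3 and 10.3% lay above it by less. Fabp4 at 53.7% (16.2 to 141) and 10.7% (3.81 to 24.2) and Nr1h3 at 10.2 and 5.90% rest on 1 to 6 molecules in T-cell-gated cells.

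**Figure D2:**
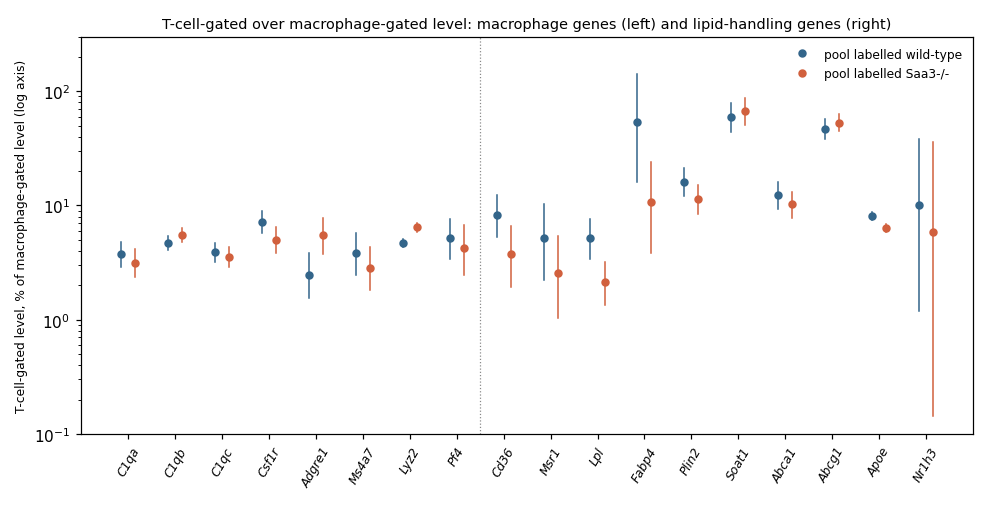
Level in T-cell-gated cells as a percentage of the level in macrophage-gated cells (y axis, log scale), for 8 macrophage genes left of the dotted line and the 10 lipid genes right of it, in the pool labelled wild-type (blue) and the pool labelled Saa3-/- (orange), with exact 95% counting intervals. Soat1 and Abcg1 stand above all 8 macrophage genes in both pools, whose range is 2.49 to 7.21% and 2.87 to 6.44%.

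Macrophages of plaques come in states. Cells of the macrophage gate were divided by at least 3 markers of a lipid-laden list (Trem2, Gpnmb, Spp1, Mmp12, Atp6v0d2) or a resident-type list (Lyve1, Folr2, F13a1, Cbr2, Cd163, Mrc1), neither of which holds any of the 10 genes. The lipid-laden list was met by 16 of 234 cells (6.84%, interval 3.96 to 10.9) and 22 of 164 cells (13.4%, 8.60 to 19.6), the resident-type list by 108 (46.2%) and 56 (34.1%), both lists by 4 and 2, and neither by 106 and 84. Of the lipid-laden cells and those meeting both lists, 10 and 8 had exactly 3 of the 5 markers, and 25 and 21 macrophage-gated cells had 2. Lipid-laden cells were deeper, with medians of 15492 and 11086.5 molecules against 9626 and 6831.5 over the gate. With every cell thinned to 3000 molecules before gating, 3 of 220 and 14 of 150 cells met the list.

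Lpl and Abcg1 set the lipid-laden cells apart from the resident-type cells. These were 2 of the 8 genes with enough molecules in both pools that were past 2-fold higher in both, against 2.6% of 2730 genes. 0 of the 8 were past 2-fold lower in both, against 4.36%. Lpl was at 1778 CPM (1615 to 1954) in lipid-laden cells against 310 CPM (281 to 341) in resident-type cells of the pool labelled wild-type, and at 3719 CPM (3507 to 3940) against 293 CPM (245 to 348) in the other pool. Abcg1 was at 680 against 156 CPM and at 608 against 157 CPM. With states gated after thinning, Lpl (4.18 and 3.90) and Abcg1 (1.19 and 2.22) were past 2-fold in both pools, and so was Soat1 (1.58 and 1.60). Cd36 was then at 1.70 in the pool labelled wild-type. These ratios rest on the 3 and 14 lipid-laden cells left.

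The other 6 were past 2-fold in 1 pool or in none. Apoe was at 9031 CPM in lipid-laden and 9427 CPM in resident-type cells, and at 10008.5 and 11274 CPM in the other pool. Abca1 was at 623 and 512 CPM, and at 695 and 772 CPM, so the 2 export transporters differed in this comparison. Plin2 was at 397 and 353 CPM in the pool labelled wild-type, within counting error, and at 964 and 275 CPM in the pool labelled Saa3-/-. Against cells that met neither list, Lpl and Cd36 were past 2-fold higher in both pools (2 of 8, against 0.947% of 3274 genes), and 0 of 8 were lower, against 1.62%. Cd36 was at 307 against 154 CPM and at 556 against 126 CPM. The first of these rests on 2 of 16 cells, which held 68 of 75 molecules: without the 2 highest cells of each group it was 33.0 against 124 CPM, a log2 ratio of -1.82, while the other pool stayed past 2-fold at 2.71. Lpl stayed past 2-fold in both.

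**Figure D3:**
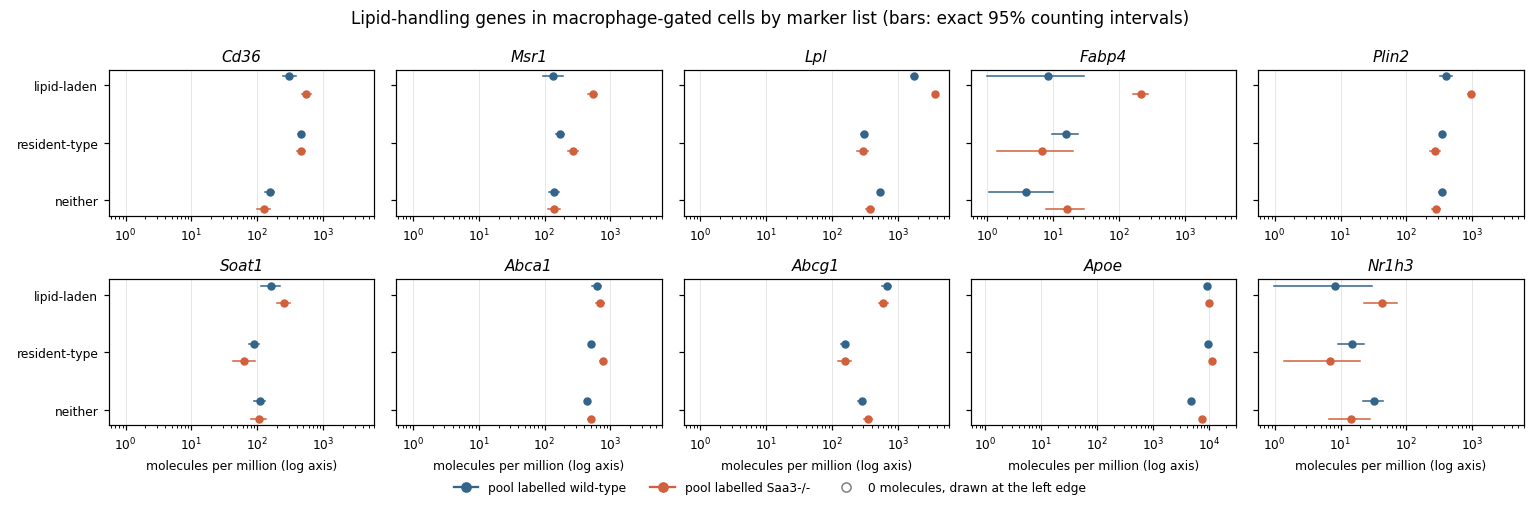
Level of each gene (x axis, CPM, log scale) in macrophage-gated cells that met the lipid-laden list (16 and 22 cells), the resident-type list (108 and 56) or neither (106 and 84), in the pool labelled wild-type (blue) and the pool labelled Saa3-/- (orange), with exact 95% counting intervals. Lpl and Abcg1 are higher in the lipid-laden cells of both pools, and Fabp4 in those of the pool labelled Saa3-/- only, at 213 against 8.2 in the other.

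Between the pools, Lpl and Fabp4 were the 2 genes past 2-fold in macrophage-gated cells, both higher in the pool labelled Saa3-/-. These are 2 of the 10 genes, all of which had at least 50 molecules, against 64 of 7975 genes (0.803%) higher past 2-fold. 0 of the 10 were lower, against 74 genes (0.928%). The median log2 ratio was 0.35 over the 10 and 0.03 over all 7975 genes, and 9 of the 10 were above 0.

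Lpl went from 528 to 1135 CPM, a log2 ratio of 1.10 (1.00 to 1.21), higher than in 99.4% of genes. Fabp4 went from 9.89 CPM (27 molecules) to 59.1 CPM (83 molecules), a log2 ratio of 2.56 (1.94 to 3.26). Msr1, from 163 to 285 CPM, had a ratio of 0.81 (0.61 to 1.00), under the limit of 1. Abcg1 at 0.42 (0.25 to 0.59), Plin2 at 0.35 (0.20 to 0.50), Abca1 at 0.35 (0.22 to 0.47), Soat1 at 0.32 (0.04 to 0.59) and Apoe at 0.31 (0.28 to 0.34) were above 0 beyond counting error. They lay within the 5th to 95th percentile of all genes (-0.54 to 0.62), from higher than 81.5% of genes for Apoe to 88.7% for Abcg1. Msr1 was higher than 97.8% of genes and Fabp4 than 99.96%. Cd36 at 0.07 (-0.09 to 0.23) and Nr1h3 at -0.21 (-0.97 to 0.47) were not separated from 0.

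The Lpl and Fabp4 molecules of the pool labelled Saa3-/- sat in few cells. Its 22 lipid-laden cells, of 164, held 72.1% of the Lpl and 79.5% of the Fabp4 molecules of the gate, and the 16 lipid-laden cells of the other pool held 30.1% and 7.41%. The 5 highest cells held 48.1% of Lpl and 73.5% of Fabp4 in the pool labelled Saa3-/-. Without the 5 highest cells of each pool the log2 ratio of Lpl was 0.72, that of Fabp4 1.67 and that of Plin2 0.02. Without all cells meeting the lipid-laden list, Lpl turned to -0.27, Fabp4 was at 0.26 on fewer than 50 molecules, and the median of the genes still tested was -0.15. Then 0 of 9 passed 2-fold, where 84 of 7416 genes were higher and 74 lower, so a count of 0 is near the share of all genes.

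**Figure D4:**
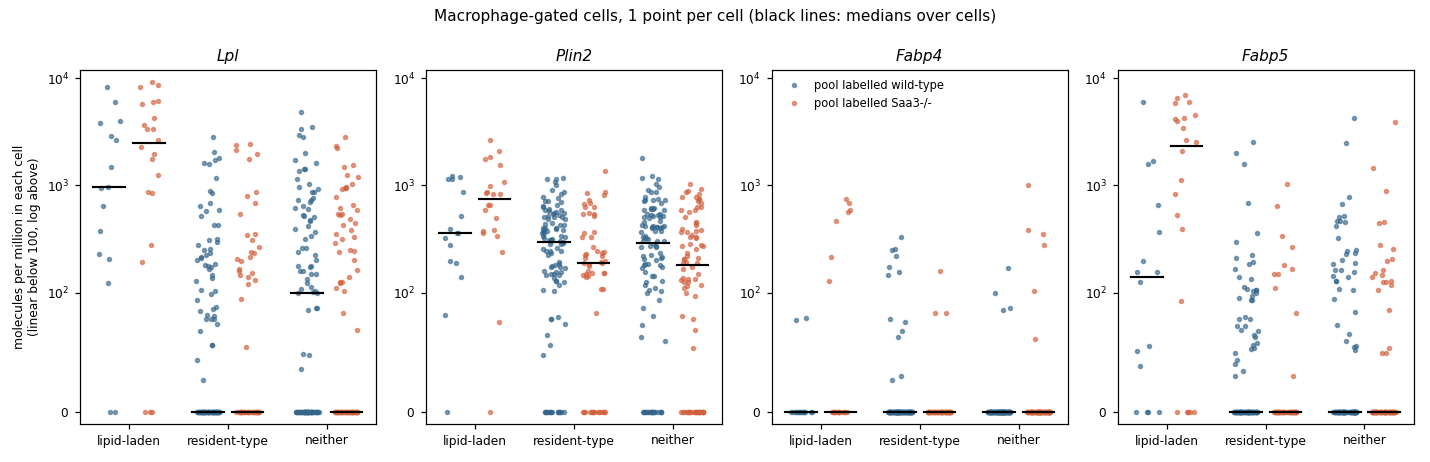
CPM in each macrophage-gated cell (y axis, linear below 100 and log above) for Lpl, Plin2, Fabp4 and Fabp5 by marker list, in the pool labelled wild-type (blue) and the pool labelled Saa3-/- (orange), with black lines at the medians over cells. For Lpl the median of lipid-laden cells is 958 and 2471, and for Fabp5 140 and 2328, while most cells outside that list have few or no molecules of Fabp4.

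Within lipid-laden cells, 4 of the 9 genes with at least 50 molecules were past 2-fold higher in the pool labelled Saa3-/-, against 3.72% of 2015 genes, and 0 were lower, against 7.74%. Msr1 was at 135 CPM (93.1 to 190) and 543 CPM (464 to 632). Plin2 was at 397 CPM (322 to 485) and 964 CPM (857 to 1080), and Lpl at 1778 and 3719 CPM. Fabp4 had 2 molecules in 16 cells against 66 molecules in 22 cells, a log2 ratio of 4.39 (2.79 to 7.78), and 5 cells held 92.4% of the 66.

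Cd36 at 307 and 556 CPM and Soat1 at 160 and 252 CPM were higher there beyond counting error but by less than 2-fold, as was Apoe at 9031 and 10008.5 CPM. Abca1 at 623 and 695 CPM and Abcg1 at 680 and 608 CPM were within counting error. These ratios depend on which cells enter: with states gated after thinning, which leaves 3 and 14 cells, they were 0.23 for Msr1, 0.97 for Plin2 and 0.68 for Lpl, all under 2-fold, Cd36 was at -1.20, and Abcg1 at 1.22, Fabp4 at 4.17 and Nr1h3 at 1.06 were past 2-fold. Without the 2 highest cells of each pool the 4 called genes stayed past 2-fold, Fabp4 on 0 and 32 molecules.

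Outside that list a smaller share was past 2-fold between the pools, among these genes and also among all genes tested. In lipid-laden cells 3.72% of 2015 genes were higher and 7.74% lower. That group held fewer cells and molecules than either group below, and the part of this in the smaller shares was not tested. In resident-type cells 0 of 8 genes were past 2-fold in either direction (1.83% of 5249 genes were higher and 1.7% lower), and Lpl was at 310 and 293 CPM. Abca1, at 512 and 772 CPM, Msr1, at 172 and 270 CPM, and Apoe were higher in the pool labelled Saa3-/- beyond counting error there, and Plin2, at 353 and 275 CPM, was lower. In cells that met neither list 0 of 8 were past 2-fold (0.999% higher and 1.47% lower of 5105 genes). Lpl was at 544 CPM in the pool labelled wild-type and 378 CPM in the other, opposite to its direction in lipid-laden cells. Apoe was at 4699 and 7469 CPM. In both groups a count of 0 of 8 is near the share of all genes.

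**Figure D5:**
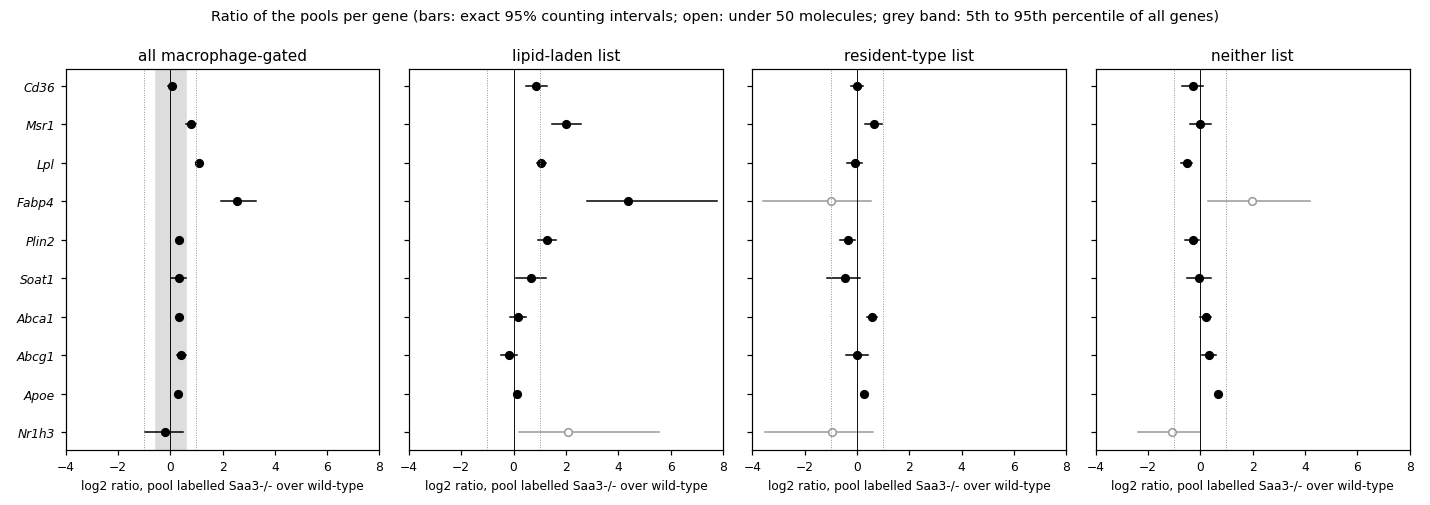
Log2 ratio of the pools, positive where the one labelled Saa3-/- is higher (x axis), for each gene, in all macrophage-gated cells and in those meeting each list, with exact 95% counting intervals. Dotted lines mark 2-fold, open points rest on under 50 molecules and the grey band spans the 5th to the 95th percentile of 7975 genes, -0.54 to 0.62. Fabp4 lies at 2.56 over the gate and 4.39 in lipid-laden cells, and all filled points of the resident-type cells lie within 2-fold.

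Markers of other cells were compared beside the Lpl and Fabp4 ratios. The adipocyte list had 11 molecules (5 of 7 markers) in macrophage-gated cells of the pool labelled wild-type and 9 molecules (4 of 7) in the other pool, with Lep at 0 in both and Adipoq and Cidec at 0 in the pool with more Fabp4. Endothelial markers, all 6 detected, were at 41.4 CPM (0 to 406 per cell) and 46.3 CPM (0 to 1164). Smooth muscle markers were at 702 and 733 CPM. In the 5 macrophage-gated cells highest in Fabp4 of the pool labelled Saa3-/-, adipocyte markers had 0 molecules, endothelial markers 1 to 6 and Gpnmb 32 to 361.

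In other types the pools differed past 2-fold for single genes. In monocyte-gated cells Abca1 fell from 266 to 123 CPM on 44 and 16 molecules, 1 of 6 genes tested (3.28% of 1066 genes were lower and 1.78% higher), and it was at -1.12 without the highest cell of each pool. Plin2 at -0.83 (-1.69 to -0.07) and Apoe at -0.58 (-0.88 to -0.29) were also lower there beyond counting error, by less than 2-fold. The median of the 6 was -0.59, with 2 above 0, and that of all 1066 genes was 0.03. Of the 43 monocyte-gated cells 20 also passed another gate. In the monocyte-like cluster of 32 cells the pools were closer for Abca1, at 174 and 161 CPM. Plin2 was at 315 and 236 CPM there and Apoe at 2023 and 1612 CPM. In fibroblast-gated cells Cd36 fell from 98.4 to 39.0 CPM and Msr1 went from 22.5 to 47.9 CPM, each 1 of 8 (1.91% of 6605 genes were lower and 2.04% higher). In the pool labelled Saa3-/- 1 cell held 29 of 43 Msr1 molecules. Without the highest cell of each pool Msr1 was at 14.5 and 16.2 CPM, a ratio of 0.17, and Cd36 stayed past 2-fold at -1.56. Macrophage markers were at 1510 and 767 CPM in those fibroblast-gated cells, and their part in these values was not tested. Cd36 there stood at 30.8 and 11.6% of its macrophage level, where the 8 macrophage genes stood at 7.49 to 20.0% and 4.24 to 12.9%. In smooth-muscle-gated cells Lpl went from 232 to 45.4 CPM and Abcg1 from 38.4 to 79.1 CPM, each 1 of 8 (1.69% of 5251 genes were lower and 1.6% higher), with macrophage markers at 1390 and 873 CPM. Without the highest cell of each pool Abcg1 was under 2-fold at 33.4 and 43.4 CPM (0.39), and Lpl stayed past 2-fold at 119 and 40.4 CPM (-1.53). Lpl there stood at 44.0 and 4.00% of its macrophage level, where the 8 macrophage genes stood at 8.62 to 18.9% and 3.79 to 11.8%. In T- and B-cell-gated cells 0 of 5 and 0 of 3 genes tested were past 2-fold (1.82% of genes were higher and 1.17% lower in T cells, 3.31 and 2.71% in B cells). In B-cell-gated cells Apoe was at 1782 and 905 CPM, just under 2-fold lower at -0.98 (-1.20 to -0.76), and Abca1 was higher at 0.68 (0.22 to 1.18). The 8 macrophage genes stood there at 8.89 to 29.3% and 1.78 to 10.6% of their macrophage level, and their part was not tested.

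Further genes of the pathway were read from fixed lists in macrophage-gated cells. Over all 7975 genes there, 0.803% were higher and 0.928% lower past 2-fold, and the median log2 ratio was 0.03. Of 15 other uptake genes 10 had enough molecules, and 1 was past 2-fold: Fabp5, a second fatty acid chaperone, went from 185 to 847 CPM, a log2 ratio of 2.19 (2.04 to 2.34). In lipid-laden cells Fabp5 was at 254 CPM (195 to 326) and 2943 CPM (2755 to 3140), and in resident-type cells at 94.99 and 81.8 CPM. In the pool labelled Saa3-/-, 7 lipid-laden cells had Fabp4, and all 7 had at least 10 molecules of Fabp5.

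The uptake list had a median of 0.21. Its genes of highest level were Cd68, a lysosomal glycoprotein of macrophages, at 814 and 1134 CPM, and Cxcl16, a chemokine that also binds oxidized lipoprotein, at 528 and 619 CPM. Of 11 droplet and hydrolysis genes tested 0 were past 2-fold and the median was 0.12. Lipa, the lysosomal acid lipase, was at 491 and 661 CPM, and Nceh1, a cholesteryl ester hydrolase, at 108 and 197 CPM, a ratio of 0.86.

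The remaining lists had 0 genes past 2-fold, which for lists this short is near the share of all genes. The 6 sterol transport genes tested had a median of 0.12. Npc2, which carries cholesterol out of lysosomes, was at 969 and 1083 CPM, and Pltp, a phospholipid transfer protein and LXR target, was at 1862 and 1262 CPM (-0.56, interval -0.64 to -0.48). The 11 LXR partners and targets had a median of 0.18, with Mylip, a ligase that degrades the LDL receptor, at 205 and 241 CPM and the corepressor Ncor1 at 178 and 171 CPM. The 7 PPAR and lipid-sensing genes tested had a median of -0.06, with Klf4, a transcription factor, at 447 and 331 CPM and Cpt1a, which admits fatty acids to mitochondria, at 119 and 106 CPM.

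Which genes had the profile most like these over the 8 cell types was described by Pearson's r on log2(CPM + 10) among 9872 genes. The points share the same libraries, and the closest of 9872 genes over 8 points can have a high r through selection alone. Each r is given with no test. For Fabp4 the 3 closest were Nos1ap (0.979), Fblim1 (0.976) and Myom1 (0.959), all highest in smooth-muscle-gated cells. For Lpl they were Sult1a1 (0.964), Twf1 (0.958) and Naglu (0.958), the last of them highest in fibroblast-gated cells. For Plin2 they were Metrnl (0.964), Tlr8 (0.963) and Rab11a (0.958), and for Abca1 Oasl1 (0.943), Hpgd (0.940) and Myo7a (0.922). Of these, Metrnl was highest in monocyte-gated and Myo7a in neutrophil-gated cells, and the others in macrophage-gated cells.

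On GRCm38 (GENCODE release M21) the genes lie at chr5:17781690-17888801 (Cd36), chr8:39581685-39642673 (Msr1), chr8:68880491-68907448 (Lpl), chr3:10204088-10208576 (Fabp4), chr4:86648386-86670060 (Plin2), chr1:156424525-156474331 (Soat1), chr4:53030787-53159895 (Abca1), chr17:31057675-31117988 (Abcg1), chr7:19696109-19699188 (Apoe) and chr2:91184061-91202834 (Nr1h3). Lpl and Abcg1 are on the plus strand and the other 8 on the minus strand. Of the 50-base stretches in their transcripts, 2.57% in Plin2 (with Gm12551), 1.14% in Lpl, 0.506% in Soat1 and 0.177% in Abcg1 recur in other genes. Their counts are uncertain for this reason, by an amount that was not measured. Soat1, Abcg1 and Nr1h3 overlap short or noncoding genes of the annotation.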

How the data were processed

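The values used are counts of molecules, told apart by unique molecular identifiers, for every gene in every cell, in 1 table the authors deposited for each tag. Per the file headers they came from the BD Rhapsody WTA Analysis Pipeline 1.11.1 with GRCm38 and GENCODE M19, intronic reads included. The submitters' processing notes also name R 4.3.1 and Seurat 4.3.0. Strand use, and counting across near-identical genes, are not given in the sources used here, and a tag's genotype is known here from its table's name alone. Of 2401 cells with a tag call, 647 were undetermined and 11 multiplets, which are not in the pool tables. No further doublet caller was run.

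Cells with at most 25% mitochondrial molecules were typed from fixed markers (at least 2 molecules each, highest share of a list winning). Macrophage-gated cells were divided by 2 state lists. Molecules were summed per pool and type and given as CPM with exact Poisson intervals. Shares have exact Clopper-Pearson intervals, and log2 ratios use a pseudocount of 0.5 molecule with an exact conditional interval. Molecules of 1 cell are not independent samples of a genotype, so all 95% intervals cover counting error only. A call is a ratio of at least 2-fold with at least 50 molecules over both pools. A count of 0 allows up to 3 molecules. Python 3.11.15, scipy 1.17.1, scanpy 1.11.5, leidenalg 0.10.2 and edgeR 4.0.16 (TMM factors only) were used, and the ratio and gating code was tested on simulated data.

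All 10 genes are named whatever they showed. From the lists, genes past 2-fold and the 2 of highest level are named. The 10 genes, markers and lists were chosen with earlier results of these data known. Alternatives were other cell filters, Leiden clusters, a stricter gate, removal of cells passing 2 gates, other scalings, equal cell weights, thinning, other pseudocounts, minimums and limits, and removal of the 5 highest cells. Leaving out lipid-laden cells, leaving out the 1 or 2 highest cells outside the whole macrophage gate, and gating states after thinning, were added after the data were seen. The gene carried by the injected vector is not reported here.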

Additional observations from a re-analysis of the deposited data

Results flagged for a closer look

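Lpl moved in opposite directions between the pools in 2 cell types: its log2 ratio, positive where the pool labelled Saa3-/- is higher, was 1.10 in macrophage-gated cells and -2.33 in smooth-muscle-gated cells. The difference between these ratios was not tested, since each label has 1 pool. Within the macrophage gate the ratio was 1.06 (interval 0.90 to 1.23) in lipid-laden cells, on 16 and 22 cells. In the 4 and 2 cells meeting both lists Lpl was also higher, at 235 and 2276 CPM on 23 and 81 molecules. The ratio was -0.08 (-0.38 to 0.21) in resident-type cells and -0.53 (-0.75 to -0.30) in cells that met neither list. In smooth-muscle-gated cells, of which 148 of 185 also passed another gate, the ratio rests on 242 and 27 molecules. There 5 cells held 69.4% of the 242. Without the highest cell of each pool, which held 122 and 4, it was -1.53. In the same cells Fabp4 had a ratio of -0.02 (interval -0.44 to 0.39).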

How the results depend on the processing

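No paired analysis was possible because each label has 1 pool. The median log2 ratio of macrophage-gated over other gated cells (2.16) stayed between 2.11 and 2.37 in all 7 alternatives run. The median ratio of the pools in macrophage-gated cells (0.35) stayed above 0 in 12 of 13, and was -0.15 without lipid-laden cells, where Lpl was reversed at -0.27. The count of 2 genes past 2-fold became 1 with Leiden clusters (Lpl at 0.89), with each cell weighing the same (Lpl at 0.73) and with at least 200 molecules required (Fabp4 not tested). It became 0 without cells that pass 2 gates (Lpl at 0.99, and Fabp4 past 2-fold at 1.80 but under the minimum of 50 molecules) and 0 without lipid-laden cells. Over all genes, 52 were higher and 45 lower of 5405 in the first of these settings, and 84 and 74 of 7416 in the second. The count over all genes (138; 64 higher and 74 lower) was 246 with each cell weighing the same, 32 at 200 molecules, 4179 with no minimum beyond 1 molecule and 800 at 1.5-fold, where 3 of the 10 genes passed. TMM scaling shifted every ratio by -0.08 and median-of-ratios scaling by -0.05, and both left 2 genes past 2-fold. Without the 2 highest cells of each group, chosen after the data were seen, Msr1 between the pools in fibroblast-gated cells was -0.023 and Cd36 in lipid-laden cells over those meeting neither list was -1.82 in the pool labelled wild-type. Depth limits Nr1h3 (82 molecules in the macrophage gate) and Fabp4 (110) most.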

Other observations

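Clusters made without the 10 genes and Saa3 gave values that no gate holds. Cluster 16 (32 cells, 10 and 22 by pool), led by Cd300e, Adgre4 and Treml4, met no naming rule, and 27 of its cells were ungated. Its median depth was 3874.5 molecules. Cd36 was at 1080 CPM in its pool labelled wild-type and 722 CPM in the other, the highest of the 22 clusters over both pools, and Abcg1 at 312 and 783 CPM. Msr1, the other scavenger receptor, had 1 molecule there.

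A cluster of 64 cells led by Gpnmb, Fabp5 and Spp1 (28 and 36) held Lpl at 916 and 2994 CPM, Plin2 at 594 and 997 CPM and Fabp4 at 24.4 and 178 CPM. Soat1 was at 250 and 206 CPM in an unnamed cluster of 34 cells led by Il1rl1, Hs3st1 and Areg, on 32 molecules. In a T-cell-like cluster of 62 cells led by Rag1, a gene of developing lymphocytes, Abcg1 was at 230 and 318 CPM, with 10 and 52 cells behind the 2 values.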
